A study of Mus musculus with 2 samples.

Results

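A group of 10 heat shock chaperone genes was followed in cultured Th1 cells of 2 genotypes. The genes, Hspa1a, Hspa1b, Hspa8, Hsph1, Dnajb1, Hsp90aa1, Hsp90ab1, Hspd1, Hspe1 and Hspb1, were taken by symbol, and all 10 were found among the 24421 genes listed for each library. They were picked as targets of heat shock factors, as a check of handling stress in the 2 cultures. One library was labelled WT Th1 (Chi3l1+/+) and one KO Th1 (Chi3l1-/-), both on the C57BL/6J background, with no replicates (1 sample each). Both came from naïve CD4 T cells of young adult mice, which by the study's methods were activated on plate-bound anti-CD3 and anti-CD28 and skewed with IL-12, IL-2 and an antibody to IL-4. The knockout is carried by the whole mouse, so it is not limited to T cells, and how many animals went into each culture was not given in the sources used here. The targeted gene itself, listed as Chil1 (chromosome 1, 134182176 to 134190181, GRCm38), had a log2 value (log2 of the normalized count plus 1) of 0.94 from about 1 read in the library labelled WT Th1 and 6.66 from about 103 reads in the library labelled KO Th1, which goes against the labels. A count per gene does not show which exons the reads came from. Every direction below is therefore one between the library labelled KO Th1 and the library labelled WT Th1.

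Heat shock proteins are chaperones that bind unfolded or newly made proteins and keep them from clumping. Heat shock factor 1, held inactive by chaperones in unstressed cells, binds heat shock elements in the promoters of these genes when unfolded proteins build up. Some members, such as Hspa8 and Hsp90ab1, are made all the time, whereas Hspa1a, Hspa1b and Dnajb1 are known as strongly stress-inducible. In T cells, activation also raises several chaperones as protein synthesis increases, and heat or rough handling of isolated cells is a known source of Hspa1a and Hspa1b transcripts.

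Heat shock elements in the promoters are shown first. The genes were chosen as targets of heat shock factors, which bind such elements, so matches here are a description and no independent support for the choice. An element is built from repeats of 5 bases that alternate in direction, and the motifs searched on both strands were GAANNTTC and TTCNNGAA (2 repeats), where N is any base, and 3 repeats in a row, which is GAANNTTC followed after any 2 bases by a further GAA, or the reverse of that. The longer motif contains both shorter ones, so a match to it also counts as a match to each of them. The windows ran from 250 bases before to 50 bases after each annotated start in RefSeq (GRCm38.p6), and 7 of the 10 members had an entry. Hspa8, Hsp90aa1 and Hsp90ab1 had none. A match to 2 repeats was found for 6 of these 7 genes, against 17.0% of all 27025 genes with an entry. A match to 3 repeats was found for 3 of 7 (Hsph1, Hspd1 and Hspe1), against 0.662% of all genes. Hspd1 and Hspe1 share the same matched stretch, and the windows of Hspa1a and Hspa1b are nearly identical. The counts are therefore of genes and not of separate elements. Dnajb1 had no match to these letters in its windows. In the sequences below, which are written 5′ to 3′ on the strand of the gene, capitals mark the matches.

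Hspa1a, chr17:34972157-34972406, minus strand, the 250 bases before the start: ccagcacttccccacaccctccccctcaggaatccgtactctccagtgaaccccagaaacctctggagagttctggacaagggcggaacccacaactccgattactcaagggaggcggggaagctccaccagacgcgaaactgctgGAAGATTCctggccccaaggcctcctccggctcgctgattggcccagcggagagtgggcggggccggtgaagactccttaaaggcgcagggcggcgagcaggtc
Hspb1, chr5:135887669-135887918, plus strand, the 250 bases before the start: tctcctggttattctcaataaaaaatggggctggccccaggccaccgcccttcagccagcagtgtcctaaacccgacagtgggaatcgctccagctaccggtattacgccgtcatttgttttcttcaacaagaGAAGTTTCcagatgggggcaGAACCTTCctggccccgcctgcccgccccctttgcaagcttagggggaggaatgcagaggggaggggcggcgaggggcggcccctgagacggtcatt
Hspe1 and Hspd1, chr1:55088053-55088082, plus strand, 30 bases between divergent starts of the 2 genes: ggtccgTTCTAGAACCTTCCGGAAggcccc
Hsph1, chr5:149636351-149636380, minus strand, 30 bases around a match upstream of the start: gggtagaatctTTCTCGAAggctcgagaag
Hsph1, chr5:149636280-149636308, minus strand, 29 bases around a match after the start: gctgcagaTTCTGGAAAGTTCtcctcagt

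The window of Hspa1b (chr17:34959239-34959488, minus strand) was identical to that of Hspa1a at 247 of 250 bases, with the substitutions C44T, T47C and T249G from Hspa1a to Hspa1b, counted from the first printed base. Both genes hold their match 104 bases before the start. Hspb1 has a pair of matches 117 and 97 bases before its start. Hspd1 and Hspe1 lie head to head on chromosome 1, and the chain shown for them starts 89 bases before the start of Hspe1 and 144 bases before one start of Hspd1. Another start of Hspd1 lies beyond it, and in GENCODE M21 the stretch falls in the 5′ UTR of that form. For Hsph1, the 2-repeat match lies 54 bases before a RefSeq start and the 3-repeat match 16 bases after it, and some GENCODE transcripts of Hsph1 begin upstream of either. A match is a description of these letters and not evidence of binding.

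**Figure D1:**
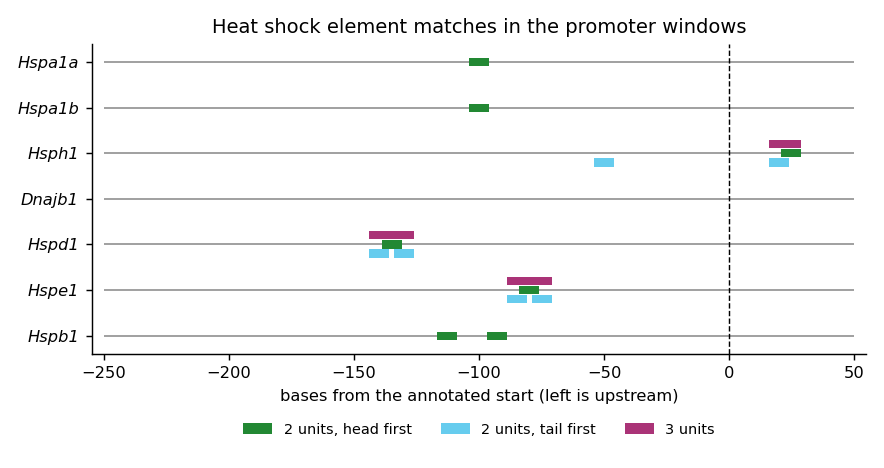
Matches to heat shock element motifs in the promoter windows of the 7 members with an entry, as bases from the annotated start (negative is upstream), with bars for matches to 2 repeats, called units in the key (green for GAANNTTC, light blue for TTCNNGAA), and to 3 repeats (purple). For genes with more than 1 annotated start, the position farthest upstream is drawn, and Dnajb1 has no match.

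The normalized counts summed to 68448996 in the library labelled WT Th1 and 60913079 in the library labelled KO Th1, and 1 read was worth 0.968 and 0.967 normalized counts, so the totals were not equalised between the libraries. The ribosomal RNA precursor Rn45s had log2 values of 20.89 and 19.22. The 8 T cell markers that were matched had log2 values from 11.72 to 16.49 over both libraries. Among them Ifng, the signature cytokine of Th1 cells, had 11.72 in the library labelled WT Th1 and 13.04 in the library labelled KO Th1. Markers of other cells were low, and their summed normalized counts differed. The 6 neutrophil markers summed to 81.2 in the library labelled WT Th1 and 4.79 in the other, where 5 of the 6 were at 0. The 5 B cell markers, all detected, summed to 939 and 1731. The 6 macrophage markers summed to 529 and 488, with Adgre1 at 0 in both, and the 5 dendritic cell markers to 73.6 and 122, with Clec9a at 0 in both. The 2 CD8 T cell markers summed to 812 and 807 and the 4 NK cell markers to 2073 and 2703, mostly from Eomes, which T cells also express. Within the macrophage, dendritic cell, CD8 T cell and NK cell lists, single markers went in both directions, which the sums do not show. The part of these cells in the chaperone values was not tested. In whole cultures, fewer cells of a type and less RNA per cell cannot be told apart.

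Most of the chaperone counts came from Hsp90ab1 and Hspa8, a pair of constitutive genes. The 10 genes together held 324758 normalized counts, or 0.474% of the total, in the library labelled WT Th1 and 361122, or 0.593%, in the library labelled KO Th1. A log2 value of 8 or more in each library is called well expressed here, and 7 members met it, while Hspa1a, Hspa1b and Hspb1 did not. Of the 10 genes, 8 were higher in the library labelled KO Th1 and 2 were lower (Hspd1 and Hspb1), where 31.7% of all genes, many of them at 0, and 48.8% of well-expressed genes were higher. At least 1.5-fold, 3 genes were higher (Hspa1a, Hspa1b and Hspe1) and 1 was lower (Hspb1). Hspa1a and Hspa1b can hold the same reads, and the 8 higher genes above include both. With them merged into 1 gene, 2 of 9 were at least 1.5-fold higher and 1 was lower. Over all 24421 genes, 9.6% were at least 1.5-fold higher and 11.4% at least 1.5-fold lower. At 2-fold, no member was higher and Hspb1 was lower, against 4.7% and 5.81% of all genes. Since low genes move more, the well-expressed members are better read against the 8886 well-expressed genes, of which 3.95% were at least 1.5-fold higher and 6.29% at least 1.5-fold lower. Of the 7 members in that range, 1 was higher (Hspe1) and none was lower, and at 2-fold none was either, against 0.461% higher and 0.743% lower among all well-expressed genes. The median log2 fold change was 0.34 over the 10 members and 0.215 over the 7, and it was -0.01 over the 8886 genes, with a 5th percentile of -0.63 and a 95th of 0.54. With 1 sample per genotype no test between the genotypes was possible, and the intervals given below are exact binomial (Clopper-Pearson) 95% intervals for read sampling alone, which hold no variation between mice, cultures or libraries.

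**Figure D2:**
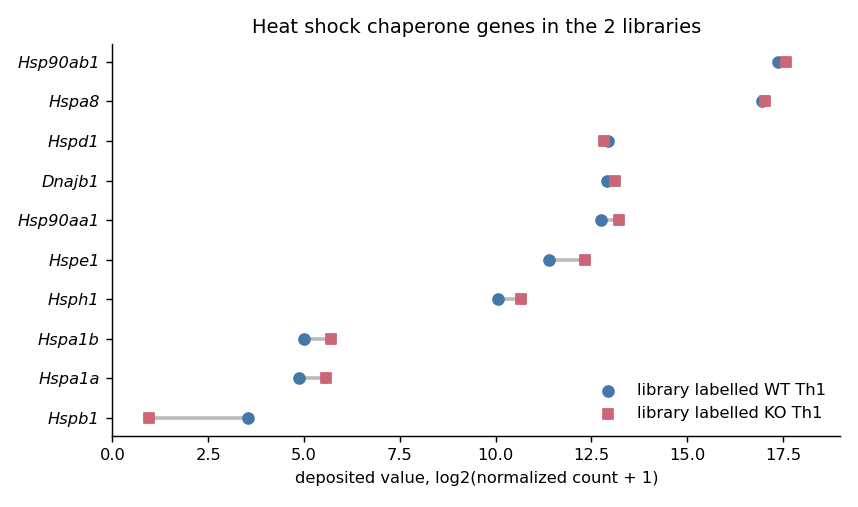
Deposited log2(normalized count + 1) of each chaperone gene in the library labelled WT Th1 (blue circles) and the library labelled KO Th1 (red squares), 1 sample each. Hsp90ab1 and Hspa8 lie above 16 in both libraries, 5 genes lie between 10 and 14, and Hspa1a, Hspa1b and Hspb1 lie below 6.

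Hspa8 encodes Hsc70, the constitutive cytosolic Hsp70 (chromosome 9, 40800984 to 40810087, GRCm38). Its log2 value was 16.96 in the library labelled WT Th1 and 17.03 in the library labelled KO Th1, from about 132067 and 138680 reads. The log2 fold change of 0.07 (interval 0.06 to 0.08) was the smallest in size of the 10 genes, and 41.0% of the well-expressed genes were as high or higher. Per kilobase of the longest coding transcript, Hspa8 had 53401 normalized counts in the library labelled WT Th1 and 56017 in the other. A part of Hspa8, 63.4% of its windows of 100 bases, also occurs in transcripts of other genes, mainly processed copies that are not in the tables, so reads with multiple alignments could have been counted for it and for such copies.

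Hspa1a and Hspa1b, the stress-inducible cytosolic Hsp70 genes, were near the floor of the data. They are neighbours on chromosome 17, Hspa1b at 34956436 to 34959238 and Hspa1a at 34969190 to 34972156. Hspa1a had a log2 value of 4.86 in the library labelled WT Th1 and 5.57 in the library labelled KO Th1, from about 29 and 48 reads. Hspa1b had 31.0 and 51.3 normalized counts, from about 32 and 53 reads. Both were low in both libraries and somewhat higher in the library labelled KO Th1. The log2 fold changes were 0.71 for each, with intervals from 0.03 to 1.44 for Hspa1a and from 0.07 to 1.41 for Hspa1b. Of the 900 genes whose higher value lay between 5 and 6, 22.8% were at least 1.5-fold higher, so a change of this size was common at this level. The coding sequences are identical at 99.4% of aligned positions, and 47.1% of the 100-base windows of Hspa1a also occur in Hspa1b. Since multiple alignments were counted, the genes can hold the same reads, and their values are not independent of each other. Summed, they gave 59.1 and 97.8 normalized counts, a log2 fold change of 0.72. Hspa8 differs more, with 74.1% of aligned coding positions shared with Hspa1a.

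The balance of constitutive to inducible Hsp70 remained far on the constitutive side. Per kilobase, Hspa8 exceeded Hspa1a 5638-fold in the library labelled WT Th1 and 3574-fold in the library labelled KO Th1, and it exceeded Hspa1b 4825-fold and 3060-fold. These ratios are rough, since Hspa1a and Hspa1b had about 29 to 53 reads and can hold the same ones. Reads of Hspa8 can also be shared with other transcripts.

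The partners of Hsp70 had intermediate levels. Hsph1 encodes Hsp110, a nucleotide exchange factor that resets Hsp70 (chromosome 5, 149614287 to 149636376). Its log2 value was 10.07 in the library labelled WT Th1 and 10.65 in the library labelled KO Th1, from about 1112 and 1663 reads, which lies just under the 1.5-fold line. The log2 fold change of 0.58 (interval 0.47 to 0.69) was equalled or passed by 359 of the 8886 well-expressed genes, or 4.04%. Dnajb1 encodes Hsp40, the J-protein that delivers clients to Hsp70 and sets off its ATPase (chromosome 8, 83608193 to 83612653). Its log2 value was 12.90 and 13.11, a log2 fold change of 0.215 (interval 0.17 to 0.26), and 25.2% of well-expressed genes were as high or higher. No window of 100 bases of either gene occurs in another annotated transcript.

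The cytosolic Hsp90 genes were both higher, and the gap between them was small once the GC trend was removed. Hsp90 completes the folding of kinases and receptors, among them kinases of T cell signaling. Hsp90ab1, the constitutive form (chromosome 17, 45567775 to 45573271), was the most abundant member, with log2 values of 17.38 in the library labelled WT Th1 and 17.57 in the library labelled KO Th1. Its log2 fold change was 0.19 (interval 0.18 to 0.20), with 27.9% of well-expressed genes as high or higher. Hsp90aa1, the inducible form (chromosome 12, 110690605 to 110702728), had 12.74 and 13.21, from about 7086 and 9791 reads. Its log2 fold change was 0.465 (interval 0.42 to 0.51), and 7.95% of well-expressed genes were as high or higher. With the GC trend removed, Hsp90aa1 stood at 0.27 and Hsp90ab1 at 0.21. Of the 100-base windows of Hsp90aa1, 47.5% also occur in transcripts of other genes, and none of those of Hsp90ab1 do. Per kilobase, Hsp90ab1 exceeded Hsp90aa1 32.4-fold in the library labelled WT Th1 and 26.8-fold in the library labelled KO Th1.

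Hspe1 and Hspd1 encode the mitochondrial partners Hsp10 and Hsp60, which form the lid and the barrel of one folding chamber, and they are divergently transcribed around the chain of heat shock elements printed above. Hspe1 (chromosome 1, 55088132 to 55091307) had a log2 value of 11.40 in the library labelled WT Th1 and 12.33 in the library labelled KO Th1, from about 2798 and 5312 reads. Its log2 fold change of 0.92 (interval 0.86 to 0.99) was equalled or passed by 50 of the 8886 well-expressed genes, or 0.563%. Hspd1 (chromosome 1, 55077835 to 55088243) had 12.95 and 12.83, from about 8151 and 7524 reads, a log2 fold change of -0.12 (interval -0.16 to -0.07). The pair therefore differed in direction, by 1.04 on the log2 scale. Per kilobase, Hspd1 stood at 0.930 of Hspe1 in the library labelled WT Th1 and at 0.452 of it in the library labelled KO Th1. Hspe1 has a short transcript of 774 bases, and of the 542 well-expressed genes with a transcript under 1000 bases, 5.17% were at least 1.5-fold higher and their median log2 fold change was -0.04. Of the 100-base windows, 22.4% of those of Hspe1 and 26.9% of those of Hspd1 occur in other transcripts. The annotated spans of the 2 genes also overlap at their starts, on opposite strands, and whether strand was used in counting was not given in the sources used here. When the libraries were scaled to their totals, Hspd1 turned to 0.05.

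Hspb1 encodes the small heat shock protein Hsp25 (Hsp27 in humans), which holds unfolded proteins without using ATP (chromosome 5, 135887919 to 135889563). It had a log2 value of 3.54 in the library labelled WT Th1, from about 11 reads, and 0.94 in the library labelled KO Th1, from about 1 read. Its log2 fold change of -2.60 was the largest of the 10 genes and the least certain, with a ratio of normalized counts of 0.0864 and an interval of the log2 ratio from -8.89 to -0.68. Of the 807 genes whose higher value lay between 3 and 4, 31.2% were at least 2-fold lower. It was barely detected in either library. Of its 100-base windows, 42.7% also occur in transcripts of other genes.

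**Figure D3:**
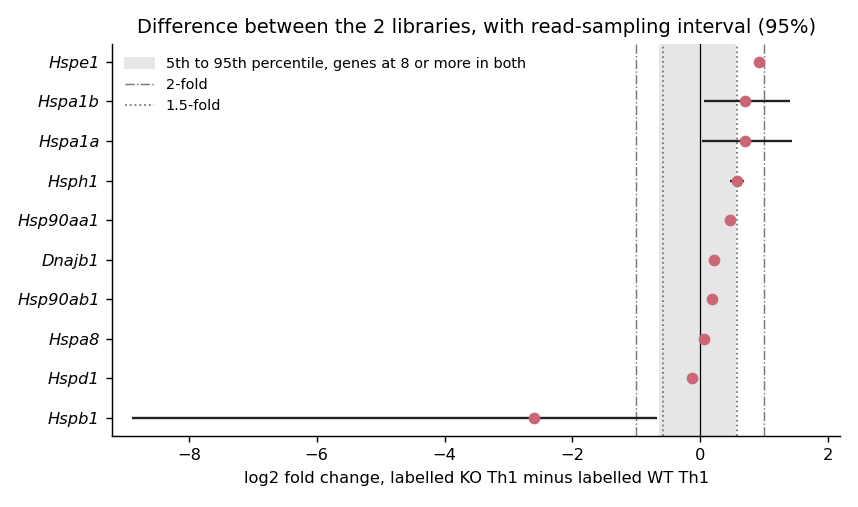
Log2 fold change of each member (points, deposited value of the library labelled KO Th1 minus that of the library labelled WT Th1) with the exact binomial 95% interval of the count ratio for read sampling alone (lines, hidden by the point where it is narrow). The grey band spans the 5th to 95th percentile of the 8886 well-expressed genes (-0.63 to 0.54), and Hspe1 and Hsph1 are the well-expressed members beyond it.

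**Figure D4:**
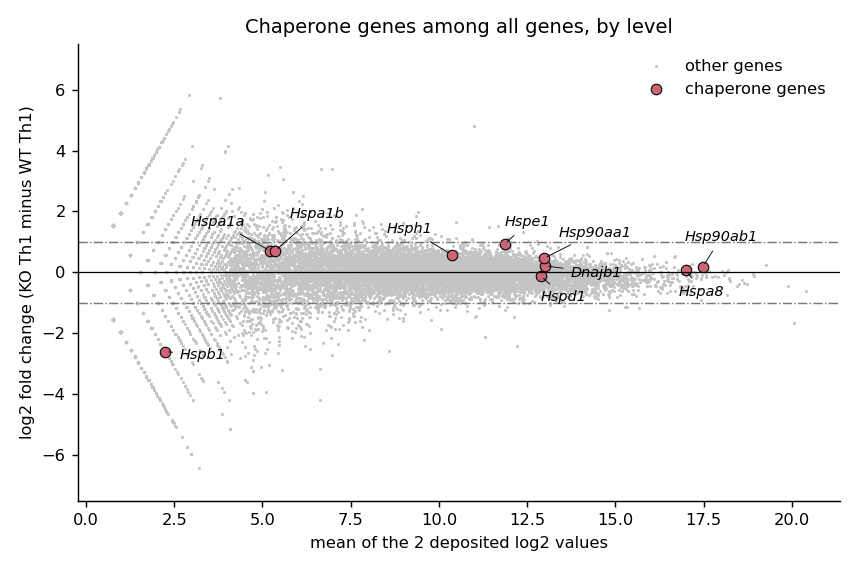
Log2 fold change against the mean of both deposited log2 values, for the 10 members (red) and other genes reaching 1 in either library (grey). The spread is wide on the left, where Hspa1a, Hspa1b and Hspb1 lie, and narrow on the right, where Hsp90ab1 and Hspa8 lie, and the dash-dotted lines mark 2-fold.

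The GC content of a transcript moved with the fold changes. Among 8579 well-expressed genes with a known transcript, the median log2 fold change was 0.24 in the lowest of 20 bins of GC content and -0.46 in the highest. The members ranged from 43.7% GC for Hsp90aa1 to 61.7% for Hspb1. With this trend removed, Hsp90aa1 stood at 0.27, Hsph1 at 0.47 and Hspe1 at 0.94, while Hspa1a and Hspa1b stood at 1.04 and 1.01, past the 2-fold line. Hspa1a and Hspa1b lie under the level of the genes on which the trend was measured, and they can hold the same reads. The share of all genes past 2-fold after this correction was not counted, so the crossing is uncertain. The 10 reference genes, commonly taken as stable, spanned log2 fold changes from -0.61 (Gapdh) to 0.50 (Ywhaz), and 5 of the 7 well-expressed members lay within that span. The members above it were Hsph1 and Hspe1.

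Of the 4 well-expressed genes among the heat shock factors and their binding partner, 1 (Hsf2) was at least 1.5-fold higher. Among all well-expressed genes, 3.95% were. Which factor passed that line turned on the GC correction. Hsf1, the main stress sensor, had a log2 value of 12.23 in the library labelled WT Th1 and 12.06 in the library labelled KO Th1, a log2 fold change of -0.17 that turned to 0.12 with the GC trend removed. Hsf2, a second factor that can pair with Hsf1, had 8.66 and 9.45, from about 418 and 723 reads, a log2 fold change of 0.79 (interval 0.61 to 0.97), or 0.55 with the GC trend removed, under the 1.5-fold line. Hsf4, best known as a factor of the lens, had 9.04 and 9.22, a log2 fold change of 0.175 that became 0.64 with the GC trend removed. Hsbp1, which binds Hsf1, stood at -0.03.

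The other heat-inducible genes controlled by Hsf1 did not share one direction. Of 20 genes listed, 15 were well expressed, 8 of these were above 0, none was at least 1.5-fold higher, and 1 was at least 1.5-fold lower, against 48.8%, 3.95% and 6.29% of all well-expressed genes. The median was 0.14. It was 0.05 with the GC trend removed, and 0.31 when scaled to the totals, which put 3 genes at least 1.5-fold higher and none lower. Scaling to the totals raised the median of all well-expressed genes by 0.17. The share of all genes past 1.5-fold was not counted under that scaling or with the GC trend removed. The highest were Chordc1, an Hsp90 co-chaperone, at 0.54 and Hspbap1, which binds Hspb1, at 0.53. The lowest were Ier5, an activator of Hsf1, at -0.72 and Bag3, a stress-inducible partner of Hsp70, at -0.53.

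Among the partners of the Hsp70 machine, none of 11 well-expressed J-proteins passed 1.5-fold, against 3.95% higher and 6.29% lower among all well-expressed genes. The J-proteins ranged from -0.575 for Dnajb2 to 0.35 for Dnajb6, with a median of 0.12. Of 9 well-expressed exchange factors and adaptors, 2 were above 0 (Bag1 at 0.28 and St13 at 0.03), against 48.8% of all well-expressed genes. The median was -0.19, and -0.02 when scaled to the totals. Their lowest values were -0.53 for Bag3 and -0.51 for Stub1, the ubiquitin ligase that sends Hsp70 clients to the proteasome. With the GC trend removed, Stub1 stood at -0.07. Of 11 other genes of the Hsp70 family, 8 were well expressed, and those under that level went in both directions. All 8 were above 0, and again with the GC trend removed, against 48.8% of all well-expressed genes on the deposited values. The lowest of the 8 stood at 0.012, with a read-sampling interval from -0.20 to 0.22. Hspa13 was the one past 1.5-fold, where 3.95% of all well-expressed genes were at least 1.5-fold higher. It stood at 0.745, and at 0.51 with the GC trend removed.

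The co-chaperones of Hsp90 had a median of 0.165 over 15 well-expressed genes. None passed 1.5-fold, against 3.95% higher and 6.29% lower among all well-expressed genes. With the GC trend removed 1 co-chaperone was at least 1.5-fold higher. When scaled to the totals, which raised the median of all well-expressed genes by 0.17, 5 were. The highest was Chordc1 at 0.54, and the lowest was Ttc4 at -0.415. The 8 subunits of CCT, the cytosolic chaperonin that folds actin and tubulin, were all above 0, from 0.13 for Cct7 to 0.475 for Cct3, with a median of 0.30, where 48.8% of all well-expressed genes were above 0. With the GC trend removed they stood between 0.06 and 0.42. None passed 1.5-fold on the deposited values, against 3.95% higher and 6.29% lower among all well-expressed genes. When scaled to the totals, which raised the median of all well-expressed genes by 0.17, 3 subunits passed it and the CCT median was 0.47. For the co-chaperones and CCT alike, the share of all genes past 1.5-fold was not counted under that scaling or with the GC trend removed. The 13 well-expressed mitochondrial chaperones and proteases had a median of 0.12, from -0.39 for Clpb to 0.44 for Afg3l2. Of the other 9 small heat shock protein genes, 3 were at 0 in both libraries and 2 were well expressed, Hspb6 at -0.18 and Hspb11 at 0.24.

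The immediate early genes, which are also induced when cells are handled or stimulated, went the other way. Of 13 well-expressed genes, 3 were above 0, none was at least 1.5-fold higher and 5 were at least 1.5-fold lower. Among all well-expressed genes the shares were 48.8%, 3.95% and 6.29%. The median was -0.45. Ier2 was lowest at -0.88 and Egr1 followed at -0.80, whereas Atf3, a stress-induced factor, stood at 0.27 and Fos at 0.10. Many of these genes are GC-rich, and with the GC trend removed none passed 1.5-fold and the median was -0.29. Scaled to the totals, 2 were at least 1.5-fold lower, with a median of -0.28. The share of all genes past 1.5-fold was not counted under either setting.

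**Figure D5:**
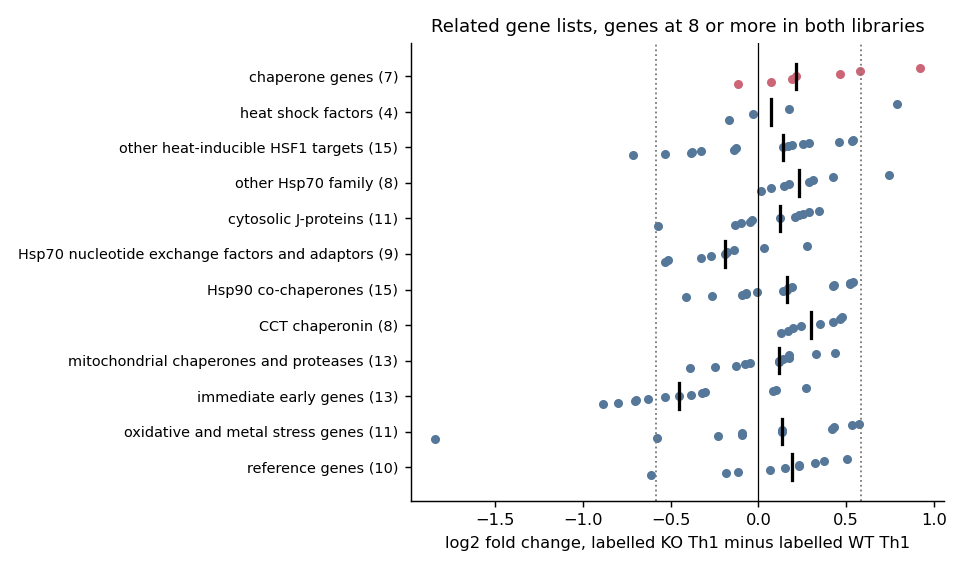
Log2 fold changes of well-expressed genes (log2 value of 8 or more in each library) in each gene list, 1 point per gene, with the number of genes in brackets, the median as a black bar and 1.5-fold as dotted lines. The CCT subunits all lie between 0.13 and 0.475, and the immediate early genes have the lowest median, -0.45.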

How the data were processed

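Polyadenylated RNA of 1 culture per genotype was made into libraries (SENSE mRNA-Seq kit) and sequenced from both ends. Per the labels and the paper's methods, the authors mapped reads with TopHat to mm10, counted unique and multiple alignments for edgeR, estimated FPKM with cufflinks and applied a global normalization. The versions of TopHat and edgeR and the annotation were not given in the sources used here. The deposited log2 values were taken to be normalized counts, with 1 added before the logarithm, a unit inferred from the values: after this is undone, 99.9% and 100% of values under 5 lie within 0.1 reads of a whole multiple of 0.968 (WT Th1) and 0.967 (KO Th1). Rebuilt reads (about 70711509 and 62991545 in all) are approximate, since the worth of 1 read varied slightly between genes.

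The members and lists were chosen with earlier results of these data known. The log2 fold change is the deposited KO Th1 value minus the WT Th1 value. Fold lines of 1.5 and 2 were applied to all genes, and genes reaching 8 in each sample are called well expressed. The level bands and the length limit of 1000 bases used as backgrounds were chosen after the values were seen. In each further list, the highest and lowest well-expressed genes are named, up to 2 each, while other genes are given by ranges and counts, and 1 gene named by this rule is not reported here. Coordinates, transcript lengths and GC content (longest coding transcript) came from GENCODE M21 (GRCm38), promoters from RefSeq. Identity was computed on coding sequences, as proteins were not used here. The functions for folds, GC trend and intervals were tested on simulated data. Alternatives were another pseudocount, other scalings, GC correction, a filter on low values, Hspa1a and Hspa1b merged, and a promoter window of 150 bases. Python 3.11.15, numpy 2.4.6, pandas 2.3.3, scipy 1.17.1, Biopython 1.88 and matplotlib 3.10.9 were used.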

Additional observations from a re-analysis of the deposited data

How the results depend on the processing

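The deposited values gave 3 members at least 1.5-fold higher, 1 lower, none at least 2-fold higher, 1 lower, and a median log2 fold change of 0.34. Scaling to the total gave 5 higher at 1.5-fold, 1 at 2-fold and a median of 0.51, scaling to the total without Rn45s gave 5, 1 and 0.48, and scaling to Actb gave 1 at 2-fold and a median of 0.46. These shifted the median of all well-expressed genes by 0.17, 0.14 and 0.12. The share of all genes past 1.5-fold or 2-fold was not counted under these scalings or with the GC trend removed. The member counts there have no background and are not read as a result about the members. Quantile normalization gave a median of 0.46. With the GC trend removed, 2 members were at least 2-fold higher and the median was 0.27. The 2 were Hspa1a and Hspa1b, which can hold the same reads and lie under the level at which the trend was measured. With the 7 well-expressed members alone, 1 was higher at 1.5-fold, 0 were lower at 1.5-fold and 0 were lower at 2-fold, and the median was 0.215, as it was with Hspa1a and Hspa1b merged. Of 85 member values under the alternatives, 33 moved outside the read-sampling interval of the gene. In all, 2 changed sign, both of Hspd1, under the scalings to the total with and without Rn45s (0.05 and 0.02). The member values under the filter on low values and the merging of Hspa1a and Hspa1b are the deposited ones, so those could not change. In the 150 bases before the start, 2 of 7 members had a match to 3 repeats and 6 of 7 to 2 repeats, against 0.322% and 8.91% of genes. The 2 were Hspd1 and Hspe1, which share the matched stretch, and the 6 include Hspa1a and Hspa1b, whose windows are nearly identical. No paired analysis was possible because each genotype has 1 sample, and leaving out a sample was not possible for the same reason. Depth limits Hspa1a, Hspa1b and Hspb1, with at most about 53 reads.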

Other observations

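Genes of oxidative and metal stress, other branches of the stress response, were spread widely. Of 14 genes, 11 were well expressed, none of these was at least 1.5-fold higher and 1 was at least 1.5-fold lower, against 3.95% and 6.29% of all well-expressed genes. With the GC trend removed 2 were lower. Scaled to the totals, which raised the median of all well-expressed genes by 0.17, 4 were higher. The share of all genes past 1.5-fold was not counted under either setting. The lower gene on the deposited values was Mt1, a metal-binding metallothionein, with a log2 value of 10.98 in the library labelled WT Th1 and 9.14 in the library labelled KO Th1, from about 2084 and 581 reads. Its log2 fold change of -1.84 (exact binomial 95% interval -1.98 to -1.71, read sampling alone) was -1.77 with the GC trend removed. Its neighbour in function Mt2, named after its values were seen because it fell under the limit for well-expressed genes in one library, had 8.96 and 7.08, a log2 fold change of -1.88. The highest genes were the thioredoxin reductase Txnrd1 at 0.57 and thioredoxin Txn1 at 0.535, and the second lowest was the cystine transporter Slc7a11 at -0.58, or -0.81 with the GC trend removed. Among 6 prefoldin genes, which hand clients to CCT, 2 were well expressed, Pfdn5 at -0.71 and Pfdn6 at 0.16. With the GC trend removed, Pfdn5 stood at -0.58, inside the 1.5-fold line. Over all 6 the median was 0.37, and the genes under the well-expressed level also went in both directions. None of these differences has a replicate.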
